A study of Arabidopsis thaliana with 36 samples.

Results

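Roots and leaves of 12-day-old Arabidopsis thaliana plants, grown on the ground as the controls of a spaceflight experiment, were compared for the signal of every probe set on the Affymetrix ATH1 array that is not an array control, 22746 in all. The comparison rests on 10 of the 36 samples of the series, 5 arrays of ground roots and 5 of ground leaves. The labels call the leaf samples shoots, and by the protocol they hold leaves cut off where the petiole begins, while hypocotyls were collected apart and are not part of either group. All 10 samples came from plants that carry a GFP reporter, Adh::GFP (promoter of alcohol dehydrogenase), DR5::GFP (synthetic auxin response element) or UB::GFP (a constitutive 35S promoter), and the labels give each sample as 60% WS and 40% Col-0. The plants grew upright on solid medium in ABRS (Advanced Biological Research System) hardware, in a chamber at Kennedy Space Center set to the temperature and CO2 recorded on the space station, and they were fixed in RNAlater. Each array holds a pool of plants, so that single plants and single reporter lines cannot be told apart. A pool is named here by its plate and its replicate number on that plate: 2-1, 4-1, 4-2, 6-1 and 6-2. Root and leaf arrays of the same plate and number were compared as a pair, although the labels do not say that they hold the same plants.

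Leaves carry out photosynthesis, exchange gas through stomata and are covered by a cuticle of cutin and wax. Roots take up water and mineral nutrients, enlarge their surface with hairs, and control what reaches the vascular tissue at the endodermis, whose walls carry the lignified Casparian strip and later suberin. Many plant enzymes occur in a plastid form that works with photosynthetic electron transport and in another form used where carbohydrate supplies the reducing power.

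The deposited values are MAS5 signals, array intensities on a linear scale. Correlations between arrays were taken over 13647 probe sets, without the 40% that had the lowest mean log2 signal over the 10 arrays. Arrays of the same organ correlated closely there, with r on the log2 scale between 0.936 and 0.975 among roots and between 0.938 and 0.967 among leaves. A root array correlated with a leaf array at 0.489 to 0.605. Genes are not independent replicates, and these correlations only describe how alike the arrays were. The organ labels were checked against markers. The 35 photosystem genes summed to 18130 to 40362 in root arrays and 687534 to 846045 in leaf arrays, and the 22 root hair genes to 6815 to 19750 in root arrays and 1774 to 2352 in leaf arrays. All 14 stomatal genes were at low signal on every root array, and 18 of the 22 root hair genes, 20 of the 24 root regulators and 23 of the 26 genes of suberin and the Casparian strip were so on every leaf array. Seed maturation genes, which would mark remnants of the seed, were at low signal on every root array for 11 of 11 members and on every leaf array for 10 of 11. Low signal means that the value lay among the lowest 40% of its array, below a limit of 105.4 to 115.2 in roots and 90.2 to 124.6 in leaves. Leaf array 2-1 stood apart at the bottom of the range, where its 25th percentile was 68.9 against 32.9 to 45.6 on the other leaf arrays.

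Differences are given as log2 of root signal minus log2 of leaf signal, averaged over the 5 pools, with a standard error (SE) from limma. The fit held the pool as a block, and p-values were adjusted over all 22746 probe sets by the Benjamini-Hochberg method, with an adjusted p under 0.05 as the threshold for a call. A gene at low signal on every array of an organ has no measured level there. For such a gene a lower bound on the fold is given in place of the fitted difference, the mean of the organ where it is high over the mean low-signal limit of the other organ's arrays (means of log2 values), and no fold is given where both organs are low. The number of arrays limits the precision, and the p-values measure the spread between these pools, which the study's methods describe as biological replicates of several plants each. In organs, fewer cells of a type and less RNA per cell cannot be told apart.

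Of the 22746 probe sets, 4137 (18.2%) were higher in roots and 3369 (14.8%) were higher in leaves. The differences were often large. At least 2-fold higher signal was called in roots for 2645 probe sets (11.6%) and in leaves for 2797 (12.3%), and at least 8-fold for 866 and 982. Over all probe sets, called or not, every root array was above every leaf array for 4431 (19.5%) and the reverse held for 3171 (13.9%). The median difference over all probe sets was 0.10. Low signal in both organs was found for 6004 probe sets, in roots only for 1799 and in leaves only for 1393. Among the calls, 1014 of those higher in roots were at low signal on every leaf array, and 942 of those higher in leaves on every root array. Of all calls, 381 were low in both organs and 852 had overlapping arrays. With 4 pools the counts fell, to 2672 higher in roots without pool 6-2 and to 2751 without pool 4-2. Averaging the pools of a plate, which leaves 3 pairs, gave 1623 higher in roots and 2099 in leaves, and without the pairing 5265 and 3756 were called.

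**Figure D1:**
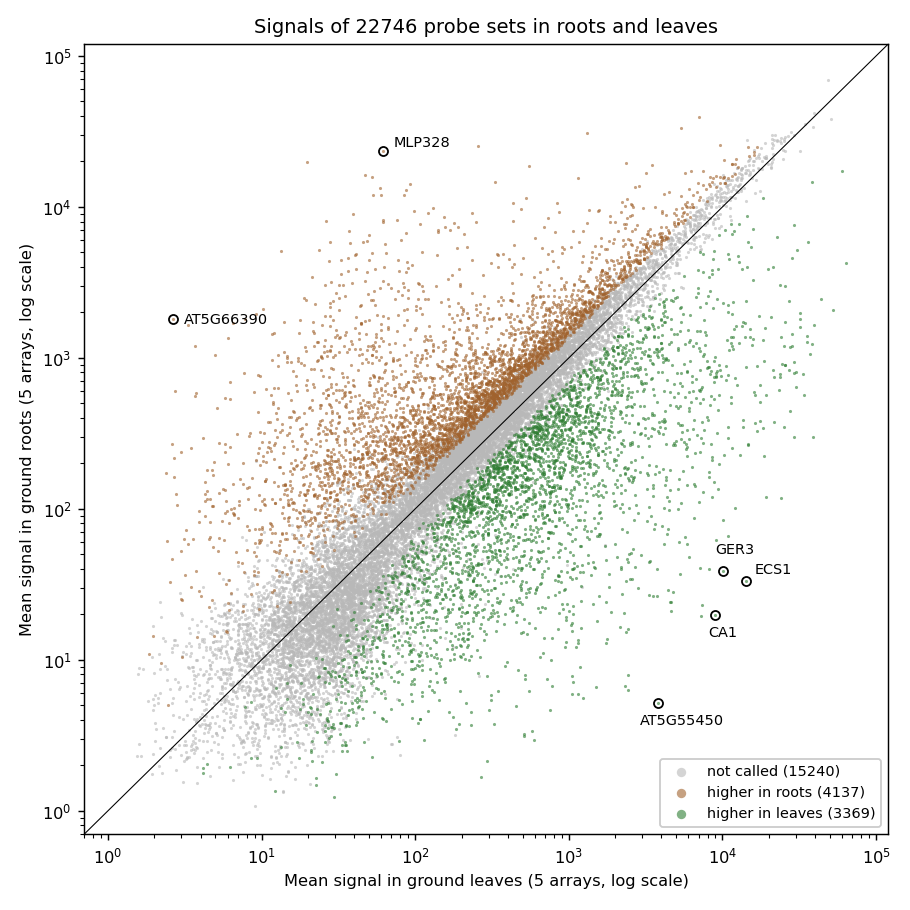
Mean signal of each of the 22746 probe sets in 5 ground leaf arrays (x axis) and 5 ground root arrays (y axis), both on log scales, coloured by the call. The 4137 probe sets higher in roots lie above the line of equal signal and the 3369 higher in leaves below it, and 6 of the genes with the largest fitted differences are named.

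The 10 genes with the largest fitted difference in each direction were all at low signal on every array of the other organ. Their order therefore rests on values below the limit and was not measured, and bounds are given for them. CA1, a carbonic anhydrase of the chloroplast, had signals of 9821, 12099, 8678, 7845 and 6391 in leaf pools 2-1, 4-1, 4-2, 6-1 and 6-2, and of 6.83, 28.7, 9.49, 7.07 and 46.3 in the root pools in the same order. Every leaf array was above every root array, and the root values lay below the low-signal limit. The leaf level was thus at least 80.5-fold higher (adjusted p = 0.000317). ECS1 had 8234 to 19458 in leaves and 5.47 to 92.4 in roots (at least 125-fold higher), and the germin-like protein GER3 a mean of 10067 in leaves and 39.0 in roots (at least 90.2-fold higher). ESM1, which steers the breakdown of glucosinolates toward isothiocyanates, had 3166 to 10096 in leaves and 2.73 to 33.6 in roots, at least 61.5-fold higher. The lipase LTL1 and the chlorophyllase CLH1 were at least 20.7-fold and 21.6-fold higher in leaves. Among the other leaf genes of this group, which carry only a locus name in the files used here, AT1G23130 was at least 65.2-fold, AT5G55450 at least 33.7-fold, AT5G63180 at least 22.2-fold and AT3G48420 at least 21.3-fold higher in leaves.

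Among the 10 genes of the root side the greatest bound belonged to MLP328, a protein of the major latex protein family. Its signals were 18158, 25633, 21650, 22512 and 30070 in root pools 2-1, 4-1, 4-2, 6-1 and 6-2, and 48.2, 83.7, 32.6, 66.7 and 76.7 in the leaf pools. Roots and leaves did not overlap, all leaf arrays were low, and the root level was at least 230-fold higher (adjusted p = 0.000138). Its relative MLP329 was at least 154-fold higher in roots. The peptide gene CLE2, whose family signals between cells, had 1292 to 2297 in roots and 2.26 to 17.7 in leaves, at least 17.7-fold higher. The extensin EXT11, a cell wall protein, was at least 10.5-fold higher and the peroxidase PER64, which acts at the Casparian strip, at least 14.1-fold. Of the genes with a locus name only, AT4G30170 was at least 78.8-fold, AT2G23540 at least 77.9-fold, AT1G52820 at least 46.2-fold, AT3G28550 at least 14.5-fold and AT5G66390 at least 14.2-fold higher in roots. Genes that were above the limit on at least 1 array of each organ were ranked apart, a choice made after the values were seen. The largest differences among them were those of AT1G09310, with means of 23870 in leaves and 117 in roots (213-fold), and of AT3G29410, with 6513 in roots and 49.6 in leaves (174-fold). ESP, which steers glucosinolate breakdown toward nitriles, followed in leaves with means of 19275 there and 119 in roots (172-fold). These folds rest in part on arrays below the limit. In leaves AT3G29410 passed the limit only in pool 4-2, at 117, and had 4.70 to 69.2 in the other pools.

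To describe what the organs express, 543 genes were sorted into 25 groups by function. For 484 of them the array holds a probe set of that gene alone. Of the 484, 146 were higher in roots, 173 higher in leaves and 165 not called. The other 59 share a probe set with a related gene or have none. A group's median is given as fitted and, where it differs, with members low in one organ set to their bound and members low in both set to 0, a scale on which the median of all probe sets was 0. Counts of called members stand against the 18.2% of all probe sets that were higher in roots and the 14.8% higher in leaves. With the pools of a plate averaged the counts of many groups were lower, and they are given where they fell by more than 1.5-fold. Leaving out low-signal probe sets removed members, so that fewer could be called, from the stomatal, leaf, root and suberin groups above all. Where a group had 2 or fewer members called in a direction, other settings called at most 4, apart from the auxin group. Genes named as higher in an organ kept that call whichever pool was left out, unless the sentence says otherwise.

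**Figure D2:**
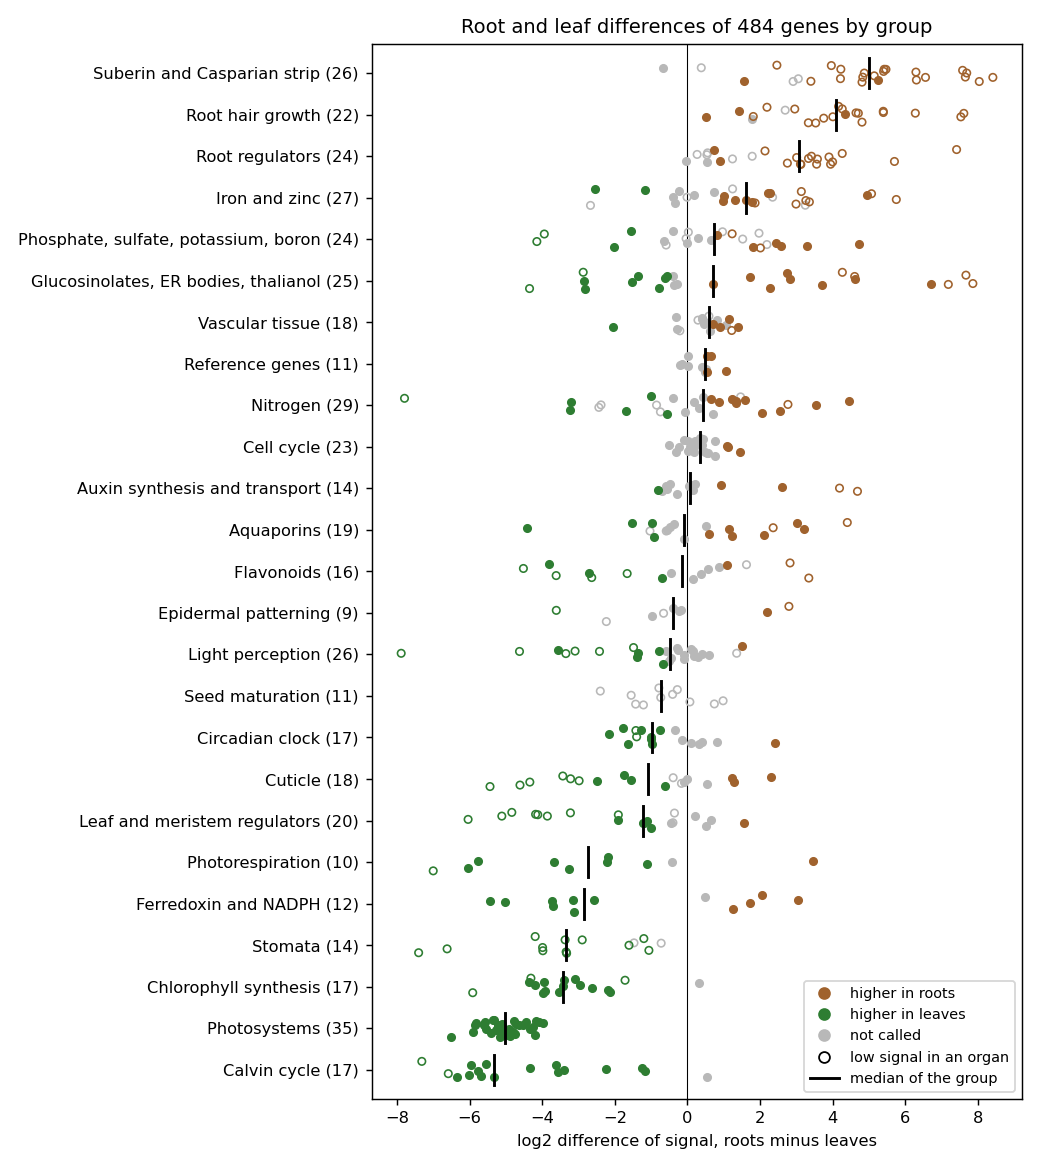
Difference between roots and leaves (x axis, log2 of signal, roots minus leaves) for 484 genes in 25 groups, with the number of genes measured in brackets. Each point is a gene, open where it was at low signal on every array of an organ, and the black bar is the median of the group, which runs from -5.32 for the Calvin cycle to 5.01 for suberin and the Casparian strip.

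The nuclear genes listed for the photosystems and light harvesting set the leaves apart without exception. Genes of the plastid genome were not among them. All 35 nuclear genes of the photosystems, light harvesting complexes and plastid ATP synthase were higher in leaves and none was at low signal in roots, with a median of -5.02 and a range from -6.53 for LHCB2.3 to -3.97. For LHCB3, an antenna protein of photosystem II, the signals were 33784, 32618, 23826, 27043 and 27866 in leaf pools 2-1, 4-1, 4-2, 6-1 and 6-2, and 757, 489, 390, 1258 and 1073 in root pools. The organs did not overlap, and among roots both pools of plate 6 were highest. LHCB3 was 39.9-fold higher in leaves (log2 difference -5.32, SE 0.30, adjusted p = 0.000313). PSBS, which triggers the dissipation of excess light energy, was 56.8-fold higher, and LHCA1 of photosystem I 49.0-fold. Probe sets that LHCB1 or RBCS genes share cannot be assigned to 1 gene and are not counted. That of the Rubisco small subunit genes RBCS1A, RBCS1B, RBCS2B and RBCS3B had a mean of 63427 in leaves and 4222 in roots.

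The Calvin cycle followed with 16 of 17 members higher in leaves, 0 in roots and a median of -5.32 (-4.67 with bounds). Rubisco activase, RCA, had 30512, 31048, 26899, 24210 and 24023 in leaf pools and 446, 300, 258, 550 and 678 in root pools, again without overlap, and was 64.9-fold higher in leaves (SE 0.30 on the log2 scale, adjusted p = 0.000245). The differences within the cycle were uneven. Phosphoribulokinase (PRK) was 47.0-fold, sedoheptulose bisphosphatase (SBPASE) 51.1-fold and the plastid aldolase FBA2 80.9-fold higher in leaves. Much smaller differences were found for transketolase (TKL1, 2.25-fold), triose phosphate isomerase (TIM, 2.38-fold) and the ribose phosphate isomerase EMB3119 (4.77-fold). The regulatory protein CP12-2 was at least 46.7-fold higher in leaves, whereas its relative CP12-3, the member not called, had 427.5 to 606 in roots and 280 to 620 in leaves (log2 difference 0.53, SE 0.24, adjusted p = 0.151). Leaf pool 6-2 alone reached 620, and the other leaf arrays were at most 339.

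Photorespiration, which recycles the product of oxygen fixation by Rubisco, had 8 of 10 members higher in leaves and 1 higher in roots, with a median of -2.75. GDCH, the H protein of glycine decarboxylase, was 54.4-fold and the hydroxypyruvate reductase HPR1 66.6-fold higher in leaves. The aminotransferase AGT was at least 55.6-fold higher. The exception was GOX3, a glycolate oxidase homologue, which had 1135, 1590, 1590, 1034 and 1184 in root pools and 161, 125, 151, 143 and 49.0 in leaf pools. It was higher in all root arrays, by 11.1-fold (log2 difference 3.47, SE 0.30, adjusted p = 0.000926), while the probe set shared by GOX1 and GOX2 had a mean of 5167 in leaves and 135 in roots.

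Chlorophyll synthesis was higher in leaves for 16 of 17 members, with a median of -3.42 (-3.39 with bounds). CHLH, a subunit of magnesium chelatase, was 15.1-fold higher, and protochlorophyllide oxidoreductase PORB 20.8-fold. PORC, another such oxidoreductase, was at least 26.7-fold higher, and GLK1, a transcription factor of chloroplast development, at least 7.63-fold. Of the forms of the first enzyme of the pathway, HEMA1 was 4.53-fold higher in leaves while HEMA2 had means of 208 in roots and 172 in leaves (log2 difference 0.33, SE 0.27, adjusted p = 0.406).

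Ferredoxin and the enzymes around it showed both directions. Ferredoxin carries electrons from photosystem I to its acceptors, and in tissue without photosynthesis the chain runs backwards, from NADPH through a root form of ferredoxin-NADP reductase to a root form of ferredoxin. Of 12 measured genes, 7 were higher in leaves and 4 in roots. The leaf ferredoxin FD2 had 27311, 27524, 24480, 24301 and 24850 in leaf pools and 2902, 2354, 2358, 3830 and 3595 in root pools. The root form FD3 had 8875, 11981, 11069, 9874 and 10652 in root pools and 2470, 2531, 2952, 2422 and 2292 in leaf pools. Neither gene overlapped between organs, and the differences ran in opposite directions, FD2 being 8.71-fold higher in leaves (adjusted p = 0.000349) and FD3 4.14-fold higher in roots (adjusted p = 0.000453). The reductases split in the same manner. FNR1 was 32.4-fold and FNR2 43.2-fold higher in leaves, whereas RFNR2 was 8.20-fold higher in roots, with 5154 to 8940 there and 739 to 867 in leaves. RFNR1 had means of 1942 in roots and 1388 in leaves and was not called (adjusted p = 0.0907). Glucose 6-phosphate dehydrogenase, which feeds NADPH into the chain, had G6PD1 13.2-fold higher in leaves and G6PD3 3.32-fold and G6PD2 2.39-fold higher in roots.

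Nitrogen assimilation, which draws on the same electrons, differed by isoform too. The ferredoxin-dependent glutamate synthase GLU1 had 3720, 6096, 5784, 3115 and 4056 in leaf pools and 27.7, 10.7, 50.6, 22.5 and 9.01 in root pools. All root arrays were low, and the leaf level was at least 40.5-fold higher (adjusted p = 0.000302). GLT1, the glutamate synthase that takes electrons from NADH, had 6020, 8351, 6464, 4411 and 5592 in root pools against 2086, 2198, 2752, 2811 and 2261 in leaf pools, with no overlap and a 2.51-fold higher level in roots (log2 difference 1.33, SE 0.22, adjusted p = 0.0073). The plastid glutamine synthetase GS2 was 9.20-fold higher in leaves, and the cytosolic GLN1;2 was 3.03-fold higher in roots (5558 to 13821 against 2859 to 3426). The cytosolic forms GLN1;1, GLN1;3 and GLN1;4 had log2 differences of 0.18, 0.33 and -0.06 and were not called.

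**Figure D3:**
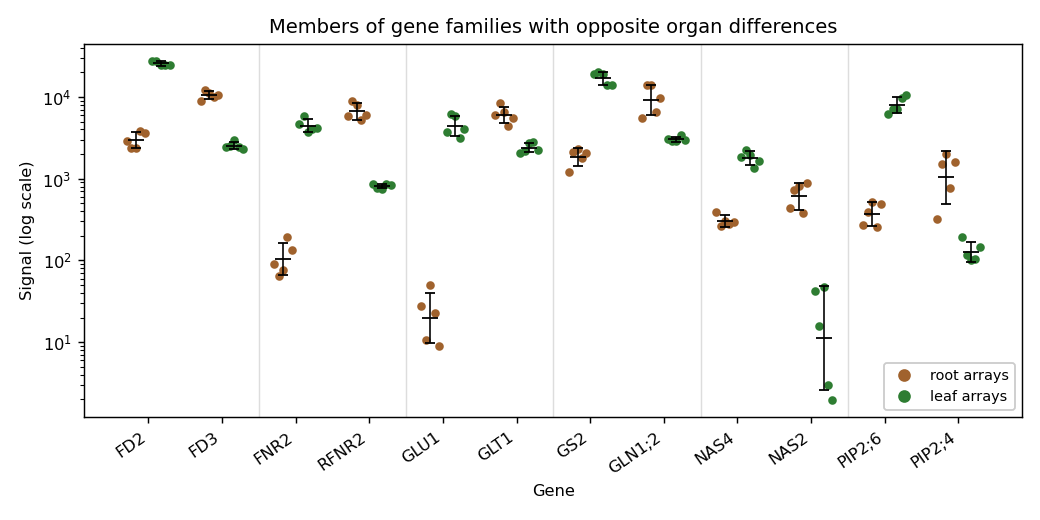
Signal (y axis, log scale) of 12 genes in 5 root and 5 leaf arrays, in pairs of related genes. Points are arrays and the black bars give the mean and SD of log2 signals, and in each pair the first gene was higher in leaves and the other in roots, as for FD2 and FD3. Levels of different genes are not comparable, because each probe set has its own response.

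Transport of nitrogen was directed in part by organ. Over the whole nitrogen group 11 of 29 measured genes were higher in roots and 6 in leaves, with a median of 0.43 (0 with bounds), and without pool 4-1 or pool 4-2 the count in roots was 7. It was 5 with plates averaged, and the median ran from 0.28 without pool 4-1 to 0.73 without pool 6-1. The leaf share, 20.7%, was not far from that of all probe sets. NRT1.5, which loads nitrate into the xylem, had 11908, 8412, 10517, 12550 and 13605 in root pools and 362, 477, 514, 497 and 767 in leaf pools. The arrays did not overlap, and the root level was 22.1-fold higher (log2 difference 4.47, SE 0.19, adjusted p = 0.000221). NRT1.9 was 4.19-fold and NRT1.2 2.36-fold higher in roots, as was NRT3.1, a partner protein of high-affinity nitrate transporters (5.89-fold). NRT1.7, which moves nitrate out of old leaves, was 3.25-fold higher in leaves. The ammonium transporter AMT1;2 had 1042 to 3185 in roots and 84.4 to 311 in leaves, and was 11.6-fold higher in roots. Among roots its values were highest in both pools of plate 4, with 3185 and 3100.

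For phosphate, sulfate, potassium and boron, 8 of 24 genes were higher in roots and 4 in leaves, with a median of 0.73 (0 with bounds) that was 0.40 without pool 6-2. The leaf share, 16.7%, was near that of all probe sets, and with plates averaged 5 were higher in roots. SULTR1;2, a sulfate importer of the root surface, had 3608, 7982, 8037, 3013 and 4251 in root pools and 166, 213, 224, 184 and 150 in leaf pools. It was 26.7-fold higher in roots, with no overlap (log2 difference 4.74, SE 0.23, adjusted p = 0.000241). A relative, SULTR3;1, ran the other way, with 666 to 1116 in leaves and 34.9 to 73.1 in roots, at least 8.0-fold higher in leaves. The potassium channel AKT1 and the potassium importer HAK5 were 5.43-fold and 9.84-fold higher in roots, and the channel AKT2 of the phloem was at least 3.02-fold higher in leaves. PHO1, which releases phosphate into the xylem, was 6.03-fold higher in roots and the plastid phosphate transporter PHT2;1 4.08-fold higher in leaves. NIP5;1, a boric acid channel, was 3.48-fold higher in roots. The shared probe set of PHT1;1 and PHT1;2, phosphate importers, had a mean of 1792 in roots and 49.9 in leaves.

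Iron and other metals gave 15 of 27 genes higher in roots and 2 in leaves, with a median of 1.61 (0.72 with bounds), and 8 were higher in roots with plates averaged. The proton pump AHA2, which acidifies the surroundings of the root, was 4.89-fold higher in roots. F6'H1, an enzyme of coumarin synthesis, was 31.1-fold higher, and ABCG37, an exporter of such phenolics, at least 12.8-fold. FRD3, which sends citrate into the xylem, was 4.70-fold and the zinc pump HMA4 3.04-fold higher in roots. Nicotianamine synthases, whose product chelates metals, differed by member. NAS2 had 378 to 874 in roots and 1.94 to 47.1 in leaves (at least 6.04-fold higher in roots). NAS4 had 1848, 2264, 1945, 1347 and 1663 in leaf pools and 395, 266, 302, 276 and 294 in root pools and was 5.89-fold higher in leaves (adjusted p = 0.000505). The ferritin FER4 was 2.25-fold higher in leaves. IRT1, the main iron importer of roots, had 43.6, 88.9, 167, 108 and 330 in root pools and 40.8, 23.1, 19.2, 54.8 and 6.80 in leaf pools, overlapped between organs and was not called (adjusted p = 0.0822).

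Aquaporins, the water channels of plasma membrane (PIP) and vacuole (TIP), moved by member and not as a family. Of 19 genes, 8 were higher in roots and 4 in leaves, with a median of -0.10 (0 with bounds). Its sign was not stable, with 0.02 after quantile normalization, -0.18 after scaling to a shared 75th percentile, 0.20 with low-signal probe sets left out, and -0.27 without pool 4-2 to 0.15 without pool 6-1. With plates averaged 3 were higher in roots and 1 in leaves, and limma's trend and robust settings gave 7 in leaves. PIP2;6 had 6125, 7036, 7061, 9560 and 10527 in leaf pools and 274, 390, 524, 255 and 491 in root pools, so it was 21.3-fold higher in leaves without overlap (adjusted p = 0.000292). PIP2;4 had 324, 1504, 2016, 773 and 1603 in root pools and 192, 115, 99.7, 104 and 145 in leaf pools. It did not overlap either, was 8.18-fold higher in roots (log2 difference 3.03, SE 0.54, adjusted p = 0.00984), and was lowest in root pool 2-1. Of the vacuolar forms TIP4;1 was 9.25-fold and TIP2;2 4.32-fold higher in roots and TIP2;1 2.88-fold higher in leaves, while TIP1;1 had means of 6287 in roots and 6596 in leaves. NIP1;1, of another aquaporin subfamily, was at least 5.74-fold higher in roots.

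Among regulators of leaf form and the shoot meristem, 13 of 20 were higher in leaves and 1 in roots, with a median of -1.21 (-0.46 with bounds). With plates averaged 4 were higher in leaves and 0 in roots. The YABBY genes FIL, YAB3 and YAB5, which mark the lower side of the leaf, were at low signal in all root arrays and at least 3.47-fold, 3.96-fold and 3.1-fold higher in leaves. FIL had 304 to 504 in leaves and 1.54 to 28.0 in roots. STM, needed to keep the shoot meristem, had 415, 315, 450, 573 and 405 in leaf pools and 5.42, 9.27, 50.8, 43.4 and 76.6 in root pools. All leaf arrays were above all root arrays and above the low-signal limit, and STM was at least 3.89-fold higher in leaves (adjusted p = 0.00511). Whether the leaf samples, which the labels call shoots, held some shoot meristem was not tested. KNAT1, another homeobox gene of the meristem, was the root exception, with 712 to 1350 in roots and 225 to 566 in leaves (log2 difference 1.56, SE 0.31, adjusted p = 0.0149), and was not called without pool 6-2 (adjusted p = 0.0543). PHB, PHV and REV, which mark the upper side of the leaf and also pattern vascular tissue, had log2 differences of 0.66, 0.52 and 0.21 and were not called.

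Genes of stomata were higher in leaves for 12 of 14 members and in roots for 0, with a median of -3.34. The levels in leaves were modest, so the median with bounds was -0.21, and 4 members were low in both organs. The count was 6 without pool 4-1 or with plates averaged, and 7 without pool 4-2. SPCH, which starts the stomatal lineage, had 54.1 to 126 in leaves and 3.01 to 8.56 in roots (adjusted p = 0.000292). No arrays overlapped, but all root values of SPCH and those of leaf pools 4-2 and 6-2 were below the low-signal limit. Its mean leaf signal was below the root limit too, so no bound is given. EPFL9, the peptide that raises stomatal density, had 2321, 2529, 3192, 2020 and 2081 in leaf pools and 28.2, 17.8, 15.3, 12.4 and 5.82 in root pools, at least 22.0-fold higher. EPF2, a peptide of the same family that limits entry into the lineage, was at least 2.52-fold higher, and the guard cell potassium channels KAT1 and KAT2 at least 2.05-fold and 2.81-fold.

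The cuticle list had 10 of 18 genes higher in leaves and 3 in roots, with a median of -1.10 (-0.35 with bounds). CER6, the condensing enzyme of wax synthesis, had 1001 to 1380 in leaves and 30.3 to 106 in roots, at least 11.0-fold higher in leaves. The exporter ABCG11 was at least 7.07-fold and CER5, an exporter too, 5.67-fold higher, and the surface protein LTPG1 3.35-fold. The members higher in roots were LACS2 (4.94-fold), KCS1 (2.45-fold) and GPAT6 (2.35-fold), which activate, elongate and esterify fatty acids. CER10, part of the general elongase, had means of 1217 in roots and 1223 in leaves.

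The genes that pattern the epidermis were less divided, with 2 of 9 higher in roots, 1 in leaves and a median of -0.41 (0 with bounds), shares of 22.2% and 11.1% that were not far from those of all probe sets. The MYB genes GL1 and WER encode proteins that can replace each other, GL1 acting in trichomes and WER in root cells without hairs. GL1 had 34.0 to 111 in leaves and 1.35 to 21.4 in roots, and WER had 298, 109, 210, 261 and 195 in root pools and 29.3, 41.2, 42.1, 13.2 and 31.7 in leaf pools. Both were without overlap and in opposite directions, GL1 at adjusted p = 0.00284 and WER at least 2.01-fold higher in roots at adjusted p = 0.00634. GL1 passed the low-signal limit only in leaf pools 4-2 and 6-2, so no bound is given for it. CPC, a small MYB protein that moves into hair cells, was 4.60-fold higher in roots. Their shared partners were near equal, with log2 differences of -0.16 for EGL3 and -0.23 for TTG1. GL2, another gene of this group, had -0.41, and none of them was called.

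Suberin and the Casparian strip formed the group furthest toward roots. Of 26 genes 22 were higher in roots and 0 in leaves, with a median of 5.01 (2.82 with bounds). CASP1, which builds the membrane platform of the strip, had 2420, 6642, 7863, 2789 and 4616 in root pools and 101, 7.82, 79.3, 8.15 and 9.38 in leaf pools. The root arrays were all above the leaf arrays, and CASP1 was at least 43.4-fold higher (adjusted p = 0.00163). Its relative CASP2 was at least 12.1-fold higher, ESB1, a dirigent protein of the strip, 38.5-fold, and the receptor kinase SGN3, which monitors the barrier, at least 9.99-fold. MYB36, the transcription factor that switches on these genes, had 201 to 411 in roots and 3.12 to 15.9 in leaves. Of suberin enzymes, the fatty acid hydroxylase HORST had 3463 to 5353 in roots and 7.23 to 52.4 in leaves (at least 42.8-fold higher), ASFT, which attaches ferulate, was at least 27.2-fold, the elongase KCS2 at least 18.3-fold, the reductase FAR4 at least 14.2-fold and the acyltransferase GPAT5 at least 5.16-fold higher. The transporters ABCG20, ABCG6 and ABCG2 were at least 9.32-fold, 11.0-fold and 4.22-fold higher. The members not called were KCS20 (log2 difference -0.66, adjusted p = 0.0864, but called higher in leaves without the replicate block), CASP4 (adjusted p = 0.051), MYB107 (adjusted p = 0.0648) and CASP5, low in both organs.

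Root hair growth had 20 of 22 genes higher in roots and 0 in leaves, with a median of 4.09 (1.89 with bounds). With plates averaged 9 were higher in roots. RHD2, an NADPH oxidase that drives tip growth, had 799, 1434, 1382, 658 and 866 in root pools and 89.8, 4.55, 8.19, 12.3 and 7.66 in leaf pools. There was no overlap, and the root level was at least 9.70-fold higher (adjusted p = 0.00275). The master regulator RSL4 was at least 1.92-fold higher and the expansin EXPA18 at least 6.61-fold. The cell wall genes PRP3 and XTH14 were at least 26.1-fold and 12.6-fold higher. RHS19, a peroxidase, had 284, 1121, 1570, 792 and 1478 in root pools and 2.75 to 8.56 in leaves, at least 8.89-fold higher in roots. The lowest root value was that of pool 2-1, which held the lowest root value of the summed group too.

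Regulators of the root meristem, of its radial pattern and of lateral roots gave 17 of 24 higher in roots and 0 in leaves, with a median of 3.06 (0.53 with bounds, 8 members being low in both organs). The MADS box gene AGL21 had 628, 525, 579, 515 and 735 in root pools and 36.6, 1.42, 2.17, 2.74 and 1.59 in leaf pools, at least 5.85-fold higher in roots with no overlap (adjusted p = 0.00142). AGL14, AGL42 and UPB1, a regulator of growth at the end of the meristem, were at least 6.45-fold, 5.17-fold and 5.01-fold higher. The partners SHR and SCR, which specify the endodermis, did not stand far apart between the organs. SHR had 378, 260, 276, 268 and 288 in root pools and 146 to 194 in leaves, a log2 difference of 0.75 (SE 0.15, adjusted p = 0.0167) that was not called without pool 2-1 (adjusted p = 0.0508) or pool 6-2 (adjusted p = 0.0638). SCR had 282 to 515 in roots and 322 to 488 in leaves, overlapping over nearly the whole range (log2 difference -0.05, SE 0.21). Their target NUC was at least 1.42-fold higher in roots. PLT1 and PLT2, which act in the root tip, were at low signal in both organs.

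The root pools varied among themselves by group. The summed signal of the suberin and Casparian strip genes was 41191 and 45425 in the pools of plate 4, 20420 and 29682 in those of plate 6 and 21855 in that of plate 2. Root hair genes summed to 16577 and 19750 on plate 4, 11138 and 16697 on plate 6 and 6815 on plate 2, so that pool 4-2 had the highest and pool 2-1 the lowest sum. Photosystem genes ran differently. They summed to 18130 and 18955 on plate 4, 27457 on plate 2 and 40362 and 33634 on plate 6. The cell cycle group was highest in pools 2-1 and 6-1, at 21332 and 20485, against 13873 to 16005 in the others, while the root regulators stayed within 5192 to 5766. The photosystem and Calvin cycle genes together, 52 in number, reached 3.42% (pool 4-1) to 5.86% (pool 6-1) of their mean leaf sum in root arrays, and the source of that signal was not tested. With 1 pool from plate 2 and 2 from each of the others, no test of plates within an organ was made.

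**Figure D4:**
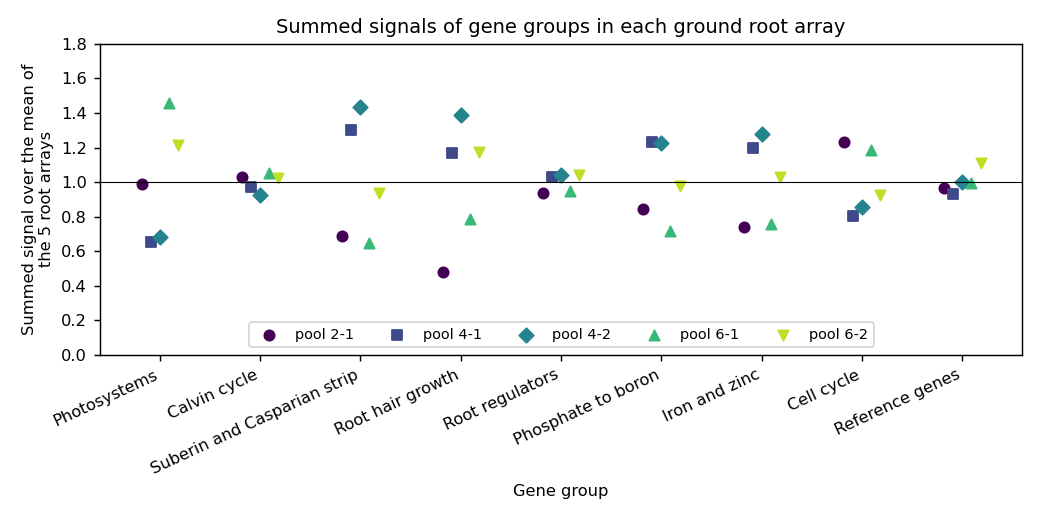
Summed signal of 9 gene groups in each of the 5 ground root arrays, divided by the mean of the 5 (y axis), with a symbol for each pool. The suberin and root hair groups were highest in pool 4-2, the photosystem group in pool 6-1 and the cell cycle group in pool 2-1, while the sums of the root regulators lay close to the mean.

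Specialized metabolism had members higher in each organ. Of 25 genes of glucosinolate, ER body and thalianol metabolism 13 were higher in roots and 9 in leaves, with a median of 0.71 (0.05 with bounds), and the count in leaves was 4 without pool 4-1 or 4-2 or with plates averaged, 5 without pool 6-1 and 3 without pool 6-2. Glucosinolates made from methionine are regulated by MYB28 and MYB29, and those from tryptophan by MYB34. MYB29 had 529, 702, 532, 748 and 825 in leaf pools and 11.5 to 63.9 in roots, at least 6.03-fold higher in leaves (adjusted p = 0.00109). MYB34 had 2962, 2457, 2350, 2648 and 2293 in root pools and 248 to 464 in leaves, 7.16-fold higher in roots (adjusted p = 0.000787). Neither overlapped between organs. MYB28 had means of 1206 in roots and 1510 in leaves (log2 difference -0.30, SE 0.20) and was not called. The enzymes differed in both directions too, with MAM1 (7.13-fold) and FMOGS-OX1 (7.16-fold) of the methionine branch higher in leaves and CYP79B2 (6.68-fold) and CYP79B3 (3.32-fold) of the tryptophan branch higher in roots. CYP81F4, which prepares the methoxylation of indole glucosinolates, had 16715 to 29947 in roots and 191 to 466 in leaves, 105-fold higher in roots (SE 0.28 on the log2 scale, adjusted p = 0.000213). The tryptophan branch was not all on the root side. MYB51, another regulator of indole glucosinolates, had 722, 326, 433, 1031 and 708 in leaf pools and 119 to 276 in roots, 2.88-fold higher in leaves (adjusted p = 0.0243), and CYP81F2, a relative of CYP81F4, had 161 to 477 in leaves and 86.2 to 146 in roots, 2.57-fold higher in leaves (adjusted p = 0.0486). MYB51 was not called without pool 2-1, 4-2, 6-1 or 6-2 (adjusted p = 0.0553 to 0.0736), nor CYP81F2 without pool 2-1, 4-1, 6-1 or 6-2 (adjusted p = 0.0739 to 0.126).

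ER bodies are stores of glucosidases that are set free on wounding. Their main enzyme PYK10 had 30658, 32164, 29420, 30557 and 32332 in root pools and 1426, 1328, 759, 1892 and 1161 in leaf pools. The root arrays were closely grouped, and PYK10 was 24.6-fold higher in roots (adjusted p = 0.000241). NAI1, which regulates these bodies, was 4.89-fold higher and NAI2, which forms them, 13-fold. The shared probe set of the myrosinases TGG1 and TGG2, the glucosidases of leaf idioblasts and guard cells, had a mean of 1491 in leaves and 6.59 in roots. THAS1, THAH and THAD, which stand next to each other in the genome and make the triterpene thalianol and its derivatives, were at least 22.3-fold, 45.8-fold and 31.8-fold higher in roots. THAH had 2568, 8944, 6285, 2920 and 5036 in root pools and 7.21 to 45.2 in leaves.

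In flavonoid synthesis 3 of 16 genes were higher in roots and 7 in leaves, with a median of -0.15 (0 with bounds). The root share, 18.8%, was near that of all probe sets, and the leaf count was 4 without pool 4-1 or with plates averaged. The median ran from -0.25 without pool 2-1 to -0.02 without pool 4-1, and was 0.15 with low-signal probe sets left out. The early enzymes did not pass the test, with log2 differences of 0.58 for CHS, -0.46 for CHI and 0.87 for F3H. The flavonol regulator MYB12 had 315 to 582 in roots and 54.6 to 67.6 in leaves, at least 4.23-fold higher in roots (adjusted p = 0.000384). DFR, which leads the pathway to anthocyanins, had 794, 1595, 1204, 649 and 625 in leaf pools and 33.3, 27.4, 140, 89.1 and 103 in root pools, 13.9-fold higher in leaves with no overlap (adjusted p = 0.00466). The anthocyanin regulator PAP2 was at least 1.29-fold higher in leaves and the flavonol glycosyltransferase UGT78D1 6.54-fold.

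Light perception had 11 of 26 genes higher in leaves and 1 in roots, with a median of -0.48, and the leaf count was 7 without pool 4-1 or pool 6-2 or with plates averaged. The phototropins, blue light receptors for bending and chloroplast movement, were both higher in leaves. PHOT2 had 1124, 1187, 1315, 838 and 940 in leaf pools and 29.4 to 50.7 in roots, at least 9.80-fold higher (adjusted p = 0.000288), and PHOT1 was 11.8-fold higher. NPH3, a partner of PHOT1, was 2.56-fold and the cryptochrome CRY1 2.6-fold higher in leaves. Phytochromes PHYA and PHYB, the red light receptors, each had a log2 difference of 0.17 and were not called. PHYC, of the same family, had 669, 474, 460, 459 and 436 in leaf pools and 266 to 343 in roots, 1.6-fold higher in leaves (adjusted p = 0.0444), and was not called without any 1 of the pools (adjusted p = 0.0792 to 0.108). The factors PIF4 and PIF5, which phytochrome removes, were at least 3.30-fold and 9.39-fold higher in leaves, PIF5 having 754 to 1348 there and 2.17 to 16.7 in roots. HY5, which opposes them and promotes greening, went the other way. It had 554, 567, 486, 468 and 480 in root pools and 190, 186, 209, 208 and 124 in leaf pools, 2.82-fold higher in roots (log2 difference 1.5, SE 0.17, adjusted p = 0.00226) without overlap.

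The circadian clock was compared at the single harvest of these plants, so that level and phase cannot be told apart. Of 17 clock genes 10 were higher in leaves and 1 in roots, with a median of -0.98 (-0.34 with bounds), and the leaf count was 6 without pool 4-1 and 3 with plates averaged. The morning genes CCA1 and LHY were 2.02-fold and 2.41-fold higher in leaves, and their coactivator LNK2 3.41-fold. CHE, a repressor of CCA1, had 1207 to 1749 in leaves and 223 to 443 in roots, 4.45-fold higher in leaves (adjusted p = 0.00108). ELF4, of the evening complex, had 1261, 1027, 1128, 1308 and 1303 in root pools and 237, 250, 246, 146 and 268 in leaf pools. It was 5.35-fold higher in roots with no overlap (log2 difference 2.42, SE 0.21, adjusted p = 0.000862). TOC1, GI and ELF3, also of the evening, had log2 differences of 0.41, 0.33 and 0.82 and were not called.

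Auxin synthesis and transport was near even, with 4 of 14 genes higher in roots, 1 in leaves and a median of 0.08 (0.00 after quantile normalization or scaling to a shared 75th percentile). The leaf count ran from 0 with plates averaged to 5 with low-signal probe sets left out or with trend and robust settings, being 4 without the replicate block and 2 without pool 2-1, and the median ran from -0.07 without pool 6-1 to 0.18 without pool 4-1. LAX3, an auxin importer that acts where lateral roots emerge, had 2057, 1681, 1702, 1604 and 1978 in root pools and 319, 234, 344, 226 and 393 in leaf pools, 6.06-fold higher in roots (adjusted p = 0.000351). PIN2, the exporter of the gravity response in the root epidermis, had 388 to 627 in roots and 8.94 to 69.5 in leaves, at least 4.65-fold higher (adjusted p = 0.0037). ABCB4, a transporter of the root epidermis, was at least 14.7-fold higher in roots, and of 2 general exporters, ABCB1 was 1.9-fold higher in roots and ABCB19 1.75-fold higher in leaves. PIN3, PIN4 and PIN7, exporters of the same family, had log2 differences of -0.49, -0.57 and -0.58 and were not called.

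Genes of the mitotic cell cycle differed little, with 3 of 23 higher in roots, 0 in leaves and a median of 0.35, and the count was 1 without pool 2-1, 6-1 or 6-2 or with plates averaged, and up to 6 in other settings. CYCB1;4, a mitotic cyclin, had 601, 609, 754, 887 and 889 in root pools and 192 to 370 in leaves, 2.74-fold higher in roots (adjusted p = 0.00596). In vascular tissue 5 of 18 genes were higher in roots and 1 in leaves, with a median of 0.60 (0.50 with bounds), and the root count was 3 without pool 4-1, 4-2 or 6-1, 2 without pool 6-2 or with plates averaged, and up to 8 in other settings. The xylem genes IRX9 and XCP1 were 2.62-fold and 2.23-fold higher in roots. SUC2, which loads sucrose into the phloem, had 1677, 1694, 1168, 1264 and 1902 in leaf pools and 464, 379, 333, 404 and 280 in root pools, 4.13-fold higher in leaves (adjusted p = 0.00151).

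Genes in common use as references had a median of 0.48, with 4 of 11 higher in roots and 0 in leaves. Their counts depended on the scale and on the pools, being 5 after quantile normalization, 1 after scaling to a shared 75th percentile, 2 without pool 6-2, 1 without any 1 of the other pools or with plates averaged, and 7 without the replicate block. ACT8 was 2.08-fold higher in roots (adjusted p = 0.00293). ACT2 had 9152 to 15325 in roots and 7463 to 9440 in leaves (adjusted p = 0.053). UBQ11 had 12421 to 14353 in roots and 10890 to 15885 in leaves, with a log2 difference of 0.01 (SE 0.14). Among 11 seed maturation genes none was called.

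The same comparison in the 5 flight pools of roots and leaves, which share no array with the ground pools, gave 4529 probe sets higher in roots (19.9%) and 3050 higher in leaves (13.4%). Of the 4137 called higher in ground roots, 99.3% had the same sign in flight, 3142 (75.9%) were called in the same direction and 0 in the opposite one. Of the 3369 called higher in ground leaves, 96.1% had the same sign, 2594 (77.0%) were called in the same direction and 5 in the opposite one. Of the 319 called genes in the groups described, 289 were called in the same direction in flight and none had the other sign. PYK10 had a log2 difference of 4.62 on the ground and 3.96 in flight and FD3 of 2.05 and 1.71. A test of the organ difference between ground and flight (an interaction in limma with the pool as a block) called 1 of 22746 probe sets, 0.0044%, and 1462 had an unadjusted p under 0.05. That probe set, of AT3G30710, was at low signal in both organs, with 8.98 to 20.6 in ground roots and 27.2 to 45.0 in ground leaves (interaction, adjusted p = 0.0151). All of these values lay below the limit, so no fold or direction is given for it. A difference that misses this threshold was not shown to be equal in ground and flight plants.

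**Figure D5:**
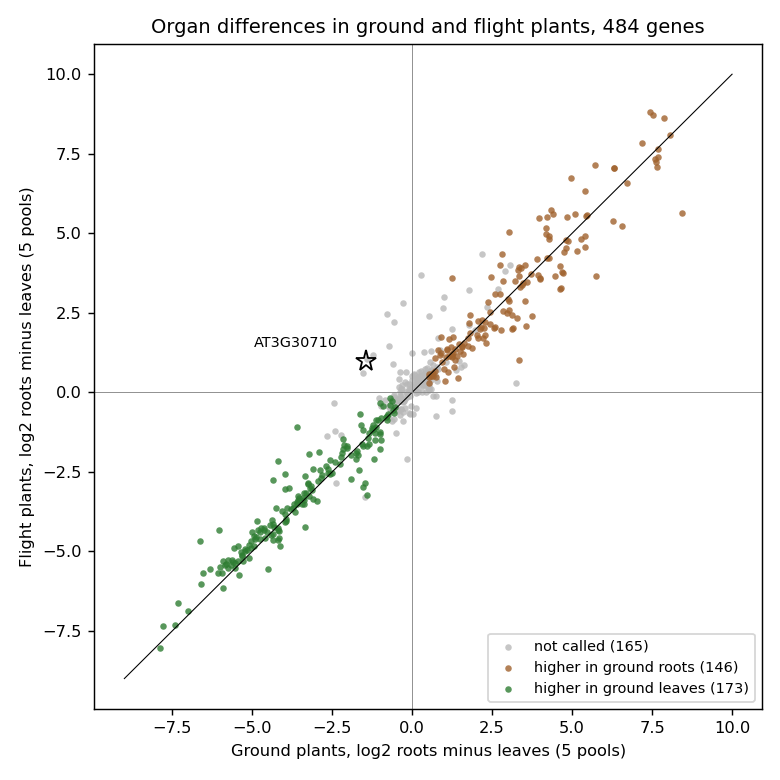
Difference between roots and leaves on the ground (x axis) and in flight (y axis), both as log2 of signal, roots minus leaves, over 5 pools each, for 484 genes coloured by the ground call. The 146 genes higher in ground roots and the 173 higher in ground leaves have the same sign in flight and lie along the line of equal difference, and the star marks AT3G30710.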

How the data were processed

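The authors extracted total RNA, amplified and labelled it with NuGEN kits and hybridised each pool of plants to 1 ATH1 array. The deposited values are intensities on a linear scale, which the authors computed by MAS5 in Affymetrix Expression Console software, whose versions are not given in the sources used here. MAS5 sets a value for each probe set from its probes and scales every array to a common trimmed mean, so a rise of many transcripts in an organ lowers the others on that scale. For the probe sets they list, the authors also deposited the number of arrays with a present call by MAS5, and p-values, q-values and log2 fold changes of flight against ground control. None of these was used for the organ comparison. The deposited present calls served only to check the limit for low signal. That check covered only the probe sets listed, 417 for ground leaves and 426 for ground roots. Of those called present on 0 of 5 arrays, 85 of 90 in leaves and 68 of 72 in roots were at low signal on every array of the organ (94.4% in each). Of the 273 in leaves and 301 in roots called present on 5 of 5, none was. Columns of 6 whole-plant samples were not used.

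Signals were converted to log2 with no offset and no filter, and 64 control probe sets of the array were left out. Roots were compared with leaves with lmFit and eBayes of limma 3.58.1 (R 4.3.3), keeping the pool as a fixed block, and the steps were tested on simulated data. The pairing comes from the plate and replicate number in the labels. The labels do not say that replicate numbers within a plate mark the same plants. With low-signal probe sets left out, deviations from the organ means correlated at -0.0789 to 0.112 between a root and a leaf array of the same plate and number. Other pairs had -0.134 to 0.174. Over all probe sets tested the ranges were -0.0999 to 0.0171 and -0.0448 to 0.0618. Arrays give no counts, so the number of arrays limits the precision.

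Gene names follow the array annotation and a table of Arabidopsis genes, in which 22091 probe sets have a listed locus. Of the probe sets tested 21447 belong to 1 gene, 1172 to several genes and 127 to none. Where several probe sets stand for a gene, the one with the highest mean log2 signal was taken. All members of the groups could be named by their values, and beside them the 10 genes with the largest difference in each direction among those with adjusted p under 0.05, the same direction in all 5 pools, no overlap and a mean signal of at least 1000 in the higher organ. The comparison, the groups and their members were chosen with earlier results of these data known, and no test of a group was made. Some members of the groups are counted but not reported by name here. Other settings tried were an offset added to the signals (their 25th percentile), quantile normalization, removal of low-signal probe sets, a common 75th percentile for all arrays, no replicate block, a plate block, plate means, limma's trend and robust settings, the methods' t-test, 1 fit of all organ arrays, and leaving out each pool.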

Additional observations from a re-analysis of the deposited data

Results flagged for a closer look

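A gap test for single arrays (Dixon's, at its 95% limit of 0.71 of the range for 5 arrays) was run on 218 sets of 5 arrays, of genes and group means. In 11 of them an array lay far from the other 4, near the share of about 1 in 20 that chance gives. Among root arrays, pool 6-1 stood apart for the mean log2 signal of the epidermal patterning genes, at 6.71, and pool 2-1 for SHR, at 378, and for MLP329, at 8387. Leaf pool 6-2 stood apart for GOX3 at 49.0, CP12-3 at 620, HY5 at 124 and AT4G30170 at 1.47. Leaf pool 4-2 did so for KNAT1 at 566 and CYP81F4 at 466, leaf pool 2-1 for AGL21 at 36.6, and leaf pool 6-1 for ELF4 at 146. The flagged values of GOX3, AT4G30170 and AGL21 were below the low-signal limit. The test of the organ difference between ground and flight plants called AT3G30710 alone in the main setting, at -2.43 on the log2 scale (limma interaction, adjusted p = 0.0151). Other settings called from 0 to 22 probe sets. All ground signals of AT3G30710 were low, so that the value is fitted below the limit and is not a measured difference.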

How the results depend on the processing

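Among the 338 called genes followed, none changed direction in any setting that tested it. In every setting that tested them 231 kept their call, and 314 did so apart from plate means and pools left out. A gene removed with the low-signal probe sets was not counted as losing its call. That setting tested only 1 of 14 stomatal genes, 11 of 26 suberin genes, 9 of 22 root hair genes and 7 of 24 root regulators. Whichever pool was left out, 273 kept their call. Averaging the pools of a plate left 3 pairs and fewer degrees of freedom, and 1623 probe sets were higher in roots and 2099 in leaves, all of them at least 2-fold. With 1 pool left out, 2672 to 3347 probe sets were higher in roots and 2672 to 3032 in leaves, and 2219 to 2642 and 2478 to 2728 at least 2-fold. Without the replicate block 5265 were higher in roots and 3756 in leaves, so the counts were lower with pairing. The other settings gave 3582 to 5936 and 2946 to 3990. The methods' t-test gave 2698 in roots and 2668 in leaves at its own limits, an unadjusted p under 0.01 with a 1.9-fold difference or more. The count of probe sets whose organ difference differed between ground and flight was 0 after quantile normalization (1355 at an unadjusted p under 0.05), 10 with an offset, 10 with low-signal probe sets left out and 22 with trend and robust settings, against 1; the cause was not tested. With an offset of 42.3 added to every signal, medians of groups with low signals shrank, to -1.63 for stomata, 3.58 for suberin, 2.36 for root hairs and 1.08 for root regulators. Signal over background limits every gene low in an organ, for which only a bound can be given.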

Other observations

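Gene families were counted by symbol, and they were picked after the data had been seen, so the counts are descriptions. Some members also stand in the groups above, such as 8 of the 16 TCP genes and 15 of the 198 cytochrome P450 genes. Of all probe sets 18.2% were higher in roots and 14.8% in leaves. Among transcription factors, TCP genes, which control cell division in leaves, were higher in leaves for 11 of 16 (68.8%) and in roots for 0. The count was 8 with any of pools 2-1, 4-1, 4-2 or 6-2 left out and 2 with the pools of a plate averaged. B-box proteins, most of which act in light responses, were higher in leaves for 13 of 24 (54.2%) and in roots for 1, the exception being BBX21 with means of 714 in roots and 214 in leaves (limma, adjusted p = 0.00273). LBD genes ran the other way, with 10 of 24 higher in roots (41.7%) and 2 in leaves, and LBD13 had means of 173 in roots and 2.39 in leaves (at least 1.69-fold, adjusted p = 0.000196). NAC genes were higher in roots for 25 of 83 (30.1%) and in leaves for 7 (8.43%), and the root count was 16 without pool 4-2 or 6-2 and 10 with plates averaged. WRKY genes were higher in roots for 21 of 62 (33.9%), with a count of 14 without pool 4-1 or 6-2 and 9 with plates averaged, and in leaves for 9 (14.5%), the share of all probe sets.

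Among enzymes and wall proteins, glutathione transferases of the tau and phi classes, which conjugate foreign and reactive compounds, were higher in roots for 18 of 38 (47.4%) and in leaves for 6 (15.8%, near that of all probe sets). GSTF14 had means of 4445 in roots and 76.7 in leaves and was at least 41.1-fold higher in roots (limma, adjusted p = 0.000426), while GSTU20 had 21463 in leaves and 3988 in roots. Arabinogalactan proteins were higher in roots for 13 of 29 (44.8%) and in leaves for 6 (20.7%), or 2 with plates averaged, and AGP13 had means of 9162 in roots and 121 in leaves (log2 difference 6.27, adjusted p = 0.000259). Xyloglucan endotransglucosylases were divided, 12 of 33 higher in roots (36.4%) and 9 in leaves (27.3%), or 6 and 5 with plates averaged, with TCH4, known for its response to touch, at 11379 in leaves and 1385 in roots. Cytochrome P450 enzymes were divided too, with 52 of 198 higher in roots (26.3%) and 45 in leaves (22.7%), or 32 and 25 with plates averaged.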
